A study of Mus musculus with 30 samples.

Results

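The spliceosome and hnRNP genes described here are the genes on the array whose symbol in the platform annotation starts with Srsf, Sfrs, Hnrnp, Hnrp, Sf3, Snrp, Lsm, Prpf or U2af, together with *Rbmx* and *Sfpq* and without *Snrpn*. Where a gene had several probes, the brightest by mean log2 signal over the 30 arrays was taken. The rule found 57 genes among 6074 tested probes that carry a single symbol, and 17997 probes were tested in all. RNA of mouse cardiac ventricle had been hybridised to 1-colour Illumina bead arrays at postnatal day 1 (P1), P7, P14, P30 or P60. Control mice carried the transgene MCK-Cre alone and Sox6 KO mice carried it with 2 floxed alleles, Sox6loxp/loxp, on the same FVB/B6 hybrid background, with 3 biological replicates in each of the 10 groups, all from male animals. Cre is thus present in both genotypes and is driven by the muscle creatine kinase promoter, which acts in heart and skeletal muscle and whose activity still increases after birth, so the deletion is limited to muscle cells and may be incomplete in the newborn. The deletion could not be tested on the arrays, where 0 probes carry the name *Sox6* in the platform table. Apart from the arrays, the study reports lower *Sox6* mRNA in Sox6 KO hearts, measured by RT-qPCR.

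An intron is removed from a transcript by the spliceosome, which is assembled anew on each intron from small nuclear ribonucleoproteins (snRNPs), each a small RNA with a ring of Sm or LSm proteins and with proteins of its own. U1 binds the start of the intron, U2AF and U2 bind its end and its branch site, and the joined U4, U5 and U6 particles complete the machine. SR proteins bind enhancer sequences in exons and recruit these particles, whereas hnRNP proteins coat the transcript and often oppose them. In the heart, the splicing of titin, troponin T and many other transcripts changes between birth and adult life.

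All 57 genes were above background on all 30 arrays, with the limit set 2 SD over the mean of the negative control rows. The processed table from which the platform symbols come holds mostly genes that are detected at every age, so splicing genes that are silent at some age are not among them. Symbols alone assign the roles: 8 SR proteins, 13 hnRNP proteins, 9 proteins of the U2 snRNP and of U2AF, 5 Sm proteins with the A protein of U1 (6 genes), 11 LSm proteins and 9 Prpf proteins. *Lsmem1*, a membrane protein, was caught by the first letters of its symbol only and is kept apart from these roles. It stays in all counts and medians of the 57 genes, where it is 1 of the 5 that rose in control from P1 to P60. The probes of *Sfpq*, *Srsf3*, *Lsm7* and *Snrpg* have no entry in the platform table and are named only by a table of genes that the study chose on these arrays, so these 4 genes are given beside the 57 and enter no count. Several hnRNP and Sm genes have processed copies or near-identical relatives, among them *Snrpb* and *Snrpn*, and a probe may take signal from both.

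The arrays of a group correlated between 0.983 and 0.996, and each array had between 13997 and 17954 probes above background. The control arrays at P1 varied more than the others, with a median SD of the 57 genes of 0.14 against 0.08 to 0.11 on the log2 scale in the other 9 groups. Markers of heart muscle were high throughout, since the summed linear signal of 11 measured cardiomyocyte markers ranged from 223683 to 304193. Other cell types moved with age or genotype. The sum of the 4 measured pericyte and smooth muscle markers was 20647 to 25564 on the control arrays at P1 and 5005 to 5832 at P60, that of 9 endothelial markers was 10744 to 12042 and 7672 to 7862, and that of 5 macrophage markers was 1281 to 1462 and 2831 to 2877. Between these ages the endothelial sum in control was 17239 to 17450 (P7), 16374 to 17054 (P14) and 9526 to 10229 (P30). The sum of 7 fibroblast markers was 12800 to 15400 at control P1, 23649 to 29808 at P7 and 18061 to 18980 at P60. The platform table names 0 of the 12 markers of cell division in the list. Probes for 7 of them (*Birc5*, *Ccnb1*, *Cdc20*, *Cdk1*, *Mki67*, *Prc1* and *Top2a*) are named in tables of genes that the study chose on these arrays, so their direction is not independent evidence. Their summed signal on the control arrays ranged between 4712 and 5154 at P1, between 2629 and 2937 at P7, between 1583 and 1727 at P14, between 939 and 1107 at P30 and between 849 and 874 at P60. The part of the cell type and cell division markers in the changes of the splicing genes, at any step, was not tested.

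Promoter stretches of 4 of the genes are shown because they stand for the main patterns described below: *Rbmx* had the largest fall in the control ventricle, *Srsf5* the largest among SR proteins, *Srsf6* the largest difference between genotypes, and *Lsm14b* the largest rise among LSm proteins. Each line gives the 200 bases before the start of the gene, 5′ to 3′ on the strand of the gene, from RefSeq on build GRCm38.p6. Capitals mark matches to 4 of the motifs searched below, namely CCAAT, the GC box GGGCGG, the ETS motif CCGGAAGT and TATAAA, or to their reverse complements.
Rbmx, chrX:57393037-57393236, minus strand: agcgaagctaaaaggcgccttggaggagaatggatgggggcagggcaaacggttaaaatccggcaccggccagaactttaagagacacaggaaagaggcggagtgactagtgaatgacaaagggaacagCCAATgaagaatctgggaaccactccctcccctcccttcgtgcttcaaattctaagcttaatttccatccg
Srsf5, chr12:80945299-80945498, plus strand: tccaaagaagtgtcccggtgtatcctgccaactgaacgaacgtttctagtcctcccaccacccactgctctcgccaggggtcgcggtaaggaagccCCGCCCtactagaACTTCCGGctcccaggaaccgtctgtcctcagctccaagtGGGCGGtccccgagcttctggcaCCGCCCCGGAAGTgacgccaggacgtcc
Srsf6, chr2:162931308-162931507, plus strand: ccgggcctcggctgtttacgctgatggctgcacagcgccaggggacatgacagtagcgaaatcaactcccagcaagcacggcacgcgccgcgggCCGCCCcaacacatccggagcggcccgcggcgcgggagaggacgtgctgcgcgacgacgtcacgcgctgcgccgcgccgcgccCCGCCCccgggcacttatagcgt
Lsm14b, chr2:180024787-180024986, plus strand: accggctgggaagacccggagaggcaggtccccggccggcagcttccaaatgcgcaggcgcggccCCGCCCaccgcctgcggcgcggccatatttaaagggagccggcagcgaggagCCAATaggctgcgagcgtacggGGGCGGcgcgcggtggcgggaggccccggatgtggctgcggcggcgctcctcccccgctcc

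Within these bases *Srsf5* holds 2 ETS matches, of which the one nearest to the start begins 23 bases before it and shares 1 base with a GC box match. *Rbmx* holds a CCAAT match 71 bases before the start and no GC box, *Srsf6* holds 2 GC boxes, and *Lsm14b* holds 2 GC boxes and a CCAAT match. Windows of 250 bases before to 50 bases after the start were found for 46 of the 57 genes. On either strand, GGGCGG was in a window of 30 of them (65.2%, against 38.2% of 27018 genes), CCAAT in 28 (60.9% against 41.1%), CCGGAAGT in 9 (19.6% against 4.3%), GCATGCGC in 6 (13% against 3%), TATAAA in 6 (13% against 15.7%), CACGTG in 5 (10.9% against 8.1%) and TCTCGCGA in 3 (6.5% against 1.1%). The median GC content of the first windows was 58.7% against 52.7% over all genes. The 27018 genes were not limited to genes detected on the arrays. Of the 31 genes with a window that fell in control ventricle from P1 to P60, 6 held CCGGAAGT, 24 GGGCGG and 21 CCAAT. Among the 15 other genes these were 3, 6 and 7. In the same order, GCATGCGC was in 4 and 2, TATAAA in 5 and 1, CACGTG in 3 and 2 and TCTCGCGA in 2 and 1. These are matches of letters in a fixed window, given without a test, and genes with several windows count once if any window matches.

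Most of the genes had less signal at P60 than at P1 in the control ventricle. Between P1 and P60, 39 of the 57 genes fell and 5 rose at an adjusted p under 0.05 (limma, Benjamini-Hochberg over 17997 probes), against 27.2% of all tested probes that fell and 27.6% that rose, and against 30.6% and 34.4% of the probes with a symbol. The median change of the 57 genes was -0.45 on the log2 scale, while that of all tested probes was -0.01. With the study's thresholds of an adjusted p under 0.01 and 1.5-fold, 26 genes fell and 2 rose, against 10.2% and 10.5% of all probes. All 7 named markers of cell division fell in the same contrast, with a median of -2.53, and their part in the falls was not tested. In bulk tissue, fewer cells of a type and less RNA per cell cannot be told apart. When arrays were scaled to their medians in place of quantile normalization, 47 genes fell and 3 rose with a median of -0.75, but the median of all probes was then 0.15 and 5124 probes fell against 8331 that rose, where the quantile normalized values gave 4895 and 4967. The size also depended on background correction, since with normexp the median was -0.68 for the 57 genes and -0.01 for all probes. Without the P1 arrays, 30 genes were lower and 7 higher at P60 than at P7 in the control ventricle, against 25% and 26% of all probes, and 29 of the 30 were also lower at P60 than at P1. Both contrasts use the same P60 arrays, and their overlap was not counted over all probes.

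**Figure D1:**
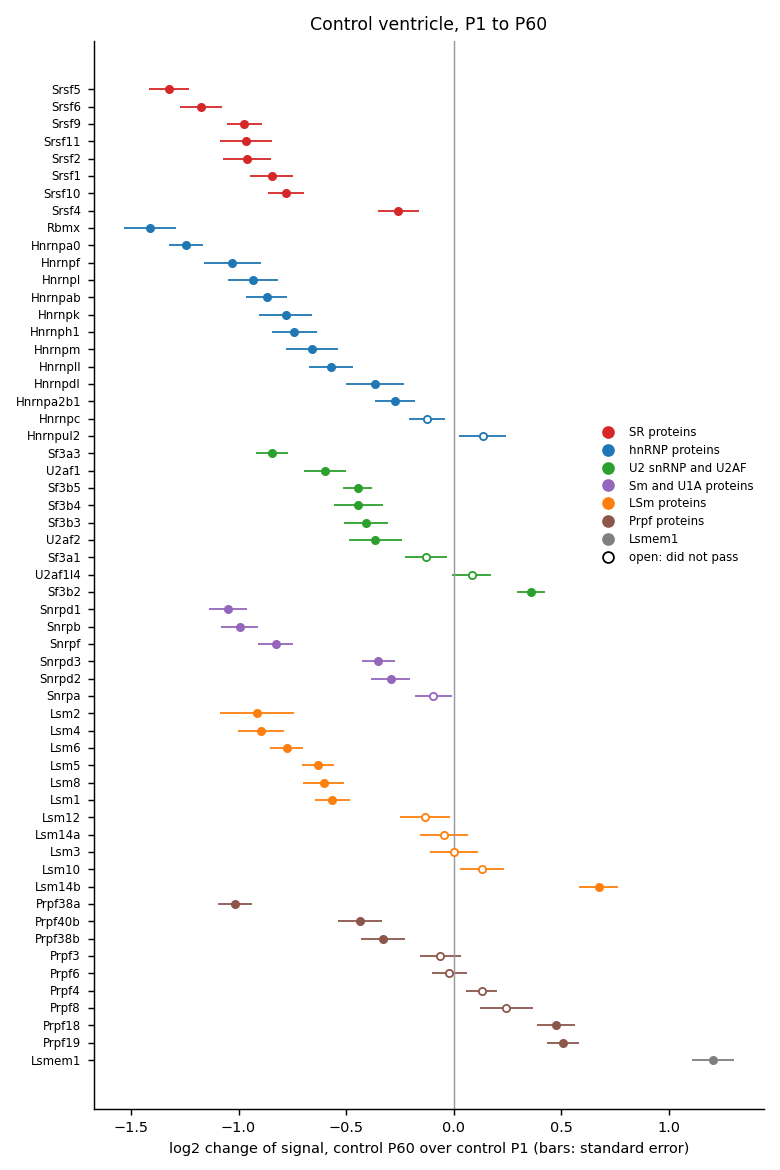
Log2 change of signal from P1 to P60 in control ventricle for each of the 57 genes (x axis), ordered by role and by size, with the standard error from limma as bars; filled points passed at an adjusted p under 0.05 and open points did not. All 8 SR proteins lie left of 0, and the 5 filled points on the right are *Sf3b2*, *Lsm14b*, *Prpf18*, *Prpf19* and *Lsmem1*.

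All 8 genes of SR proteins fell in the control ventricle from P1 to P60, 7 of them by the stricter thresholds, with a median of -0.96. *Srsf5* was measured at 10.99, 11.03 and 11.03 at P1 and at 9.82, 9.69 and 9.59 at P60 in log2 signal, a 2.50-fold fall (log2 change -1.32, SE 0.09, adjusted p = 1.77e-12, limma). *Srsf6* was at 9.71, 9.65 and 9.64 at P1 and at 8.61, 8.39 and 8.48 at P60 (log2 change -1.17, SE 0.10, adjusted p = 3.78e-11, limma). The P1 and P60 arrays did not overlap for either gene. *Srsf9* fell by 0.97 (adjusted p = 6.54e-11, limma) and *Srsf11* also by 0.97 (adjusted p = 8.31e-08, limma). *Srsf2* fell by 0.96, *Srsf1*, the founding member of the family, by 0.85, and *Srsf10*, which acts as a repressor when it is dephosphorylated, by 0.78. *Srsf4* changed least, at -0.26. *Srsf3*, named by the study's table only, was at -0.85.

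Among the 13 hnRNP genes 11 fell, 8 of them by the stricter thresholds, none rose (limma; 0 also at an unadjusted p under 0.05), and the median was -0.74. *Rbmx* is X-linked and encodes hnRNP G, which binds RNA near splice sites. It was measured at 9.62, 10.01 and 9.99 at P1, at 8.90, 8.80 and 8.95 at P7 and at 8.49, 8.38 and 8.52 at P60, so the arrays at P1 lay above all later control arrays. Its 2.66-fold fall (log2 change -1.41, SE 0.12, adjusted p = 8.34e-11, limma) was complete to 70.1% by P7 and to 91.2% by P14. *Hnrnpa0*, whose protein binds AU-rich elements, went from 10.24 ± 0.12 to 8.99 ± 0.06 (mean and SD of 3 arrays; log2 change -1.25, adjusted p = 1.72e-13, limma).

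*Hnrnpf*, whose protein binds runs of G, fell by 1.03 (adjusted p = 2.08e-07, limma), and *Hnrnph1*, which encodes a related G-binding protein, fell by 0.74. *Hnrnpl*, whose protein binds CA repeats, fell by 0.93 (adjusted p = 1.16e-07, limma) and its relative *Hnrnpll* by 0.57. *Hnrnpk*, which encodes a C-binding protein, was at -0.78, and *Hnrnpa2b1* changed least of the 11 that fell, at -0.27. The 2 hnRNP genes that did not pass were *Hnrnpc*, whose protein binds runs of U, at -0.12, and *Hnrnpul2* at 0.14. *Sfpq*, which encodes a paraspeckle protein and is named by the study's table only, was at 10.13, 10.20 and 10.39 at P1 and at 8.99, 8.87 and 8.93 at P60 (log2 change -1.31, SE 0.09, adjusted p = 3.29e-13, limma). The probe that the study names *Hnrnpa1* is *Gm5643* in the platform annotation and is therefore no member of the set, and it was at -1.20.

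Of the 9 genes of the U2 snRNP and of U2AF, 6 fell, 1 rose, and the median was -0.41. *Sf3a3*, a subunit of the SF3A complex, was measured at 10.09, 9.90 and 9.90 at P1 and at 9.11, 9.17 and 9.07 at P60 (log2 change -0.85, SE 0.07, adjusted p = 1.74e-10, limma). *U2af1*, whose protein reads the AG at the end of the intron, fell by 0.60 (adjusted p = 7.16e-06, limma), and *U2af2*, whose protein binds the polypyrimidine tract, was at -0.36. The subunits of SF3B, which holds the branch site, did not move together. *Sf3b5* fell by 0.45 (adjusted p = 3.23e-06, limma), *Sf3b4* was at -0.44 with arrays that overlapped between P1 and P60, and *Sf3b3* was at -0.41. *Sf3b2* rose from 10.43, 10.30 and 10.32 to 10.67, 10.78 and 10.68, a log2 change of 0.36 (adjusted p = 3.54e-05, limma), which was 0.074 and did not pass with median scaling of the arrays (adjusted p = 0.455).

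The Sm proteins form the ring around the U1, U2, U4 and U5 RNAs, and all 5 of their measured genes fell in the control ventricle, 3 of them by the stricter thresholds. *Snrpd1* was measured at 10.56, 10.49 and 10.43 at P1 and at 9.33, 9.48 and 9.52 at P60 (log2 change -1.05, SE 0.09, adjusted p = 7.44e-11, limma). *Snrpb* was at 11.12, 11.46 and 11.47 at P1 and at 10.24, 10.47 and 10.37 at P60 (log2 change -0.99, SE 0.09, adjusted p = 9.06e-11, limma). No array at P60 reached the lowest at P1 in either gene. *Snrpf* fell by 0.83 (adjusted p = 1.20e-09, limma), and *Snrpd3* fell by 0.35 and *Snrpd2* by 0.29. *Snrpa*, which encodes the A protein of U1 and is no part of the ring, was at -0.09 and did not pass. *Snrpg*, named by the study's table only, was at -0.99.

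The 11 LSm genes were divided. The proteins of *Lsm2* to *Lsm8* form a ring at the end of the U6 RNA, and *Lsm1* takes the place of *Lsm8* in a cytoplasmic ring that promotes decapping of mRNA. *Lsm2*, *Lsm4*, *Lsm5*, *Lsm6* and *Lsm8* of the first ring fell, by 0.91, 0.90, 0.63, 0.78 and 0.60, *Lsm1* fell by 0.57, and *Lsm3* stayed at 0.00 and did not pass. *Lsm4* was measured at 11.56, 11.36 and 11.43 at P1 and at 10.41, 10.70 and 10.55 at P60 (SE 0.11, adjusted p = 4.83e-08, limma). *Lsm2* was at 8.33, 9.47 and 8.85 at P1 and at 7.81, 7.98 and 8.12 at P60 (SE 0.17, adjusted p = 5.34e-05, limma), so its size rests on an uneven P1 group, and the change ranged from -1.19 to -0.62 when 1 array was left out.

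*Lsm14b*, which encodes a protein of cytoplasmic mRNP granules, rose from 10.01, 9.59 and 9.75 to 10.41, 10.55 and 10.41 (log2 change 0.67, SE 0.09, adjusted p = 4.24e-07, limma), while its relative *Lsm14a* was at -0.05. *Lsm7*, another ring protein of U6 and named by the study's table only, was at -0.77. *Lsm10*, a component of the U7 snRNP that processes histone mRNA, was at 0.13 and *Lsm12* at -0.13, and neither passed. *Lsmem1* rose from 8.67, 8.87 and 8.66 to 9.98, 9.93 and 9.91, the largest rise among the 57 genes (log2 change 1.20, SE 0.10, adjusted p = 2.66e-11, limma).

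The Prpf genes, which are named after yeast mutants in pre-mRNA processing, numbered 3 that fell and 2 that rose among 9, close to the 27.2% and 27.6% of all probes, with a median of -0.02. *Prpf38a*, whose protein is needed to activate the assembled spliceosome, was measured at 9.68, 9.49 and 9.54 at P1 and at 8.65, 8.36 and 8.64 at P60 (log2 change -1.02, SE 0.08, adjusted p = 1.32e-11, limma). *Prpf40b* fell by 0.44 (adjusted p = 0.000799, limma) and *Prpf38b* by 0.33. *Prpf19*, which encodes a ubiquitin ligase of the active spliceosome, rose from 11.60 ± 0.12 to 12.11 ± 0.12 (mean and SD of 3 arrays; log2 change 0.51, adjusted p = 1.54e-06, limma). *Prpf18*, which acts in the second step of splicing, rose by 0.48 (adjusted p = 4.62e-05, limma), a change that was 0.16 and did not pass with median scaling (adjusted p = 0.209). The genes of the tri-snRNP proteins *Prpf3*, *Prpf4*, *Prpf6* and *Prpf8* ranged from -0.06 to 0.25 and none passed (limma; also 0 of the 4 at an unadjusted p under 0.05).

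Other splicing genes that the rule does not cover were read from 4 lists for comparison, in the same control contrast of P60 over P1, where 27.2% of all probes fell and 27.6% rose. Of 28 measured genes of other core spliceosome factors 14 fell and 3 rose, with a median of -0.19. *Bud31* was at -0.98, *Syf2* at 0.83, *Sart3* at -0.66 and *Snrnp70*, the U1 protein, at -0.59. Of 27 other regulators and RNA-binding proteins 20 fell and 2 rose, with a median of -0.68. *Matr3* was at -1.16, *Acin1* at 1.08, *Tra2b*, an SR-like enhancer protein, at -1.07 and *Rbm5* also at -1.07. A second probe of *Matr3*, with the lower signal, was at -0.04. Of the 7 kinases that phosphorylate SR proteins 4 fell, with *Clk2* at -0.68, *Clk4* at -0.55, the muscle kinase *Srpk3* at -0.47 and *Clk3* at -0.36, while *Clk1* at 0.19 and *Srpk2* at 0.23 did not pass. Of 9 splicing regulators of striated muscle 5 rose and 2 fell, with the neuronal and muscle regulator *Rbfox1* at 2.20, *Rbpms2* at -1.40, *Mbnl1*, a muscleblind protein, at 0.95 and *Mbnl2* at 0.71.

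The largest fall of most of the genes lay in 1 of 2 steps. In limma's F test over the 5 control ages 52 of the 57 genes changed, against 69.6% of all tested probes, and 40 of the 57 had their highest mean at P1. Of the 39 genes that fell from P1 to P60, the largest step was P1 to P7 in 16, P7 to P14 in 6, P14 to P30 in 16 and P30 to P60 in 1. The roles differed in this count: 5 of 8 SR proteins and 6 of 11 hnRNP proteins fell most between P14 and P30, whereas 4 of 6 genes of U2 and U2AF and 4 of 5 Sm genes fell most between P1 and P7. Relative to P1, the median SR gene stood at -0.14 (P7), -0.42 (P14), -0.81 (P30) and -0.96 (P60). The median gene of U2 and U2AF stood at -0.31 at P7 and -0.41 at P60. These counts and medians describe the genes, and the timing of the roles was not compared by a test. The largest step and the age of the highest mean were not counted over all probes. The timing is therefore not shown to be particular to these genes. Over all tested probes, 12.5%, 9.91%, 16.1% and 10.1% fell in the 4 control steps, which differ in length.

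**Figure D2:**
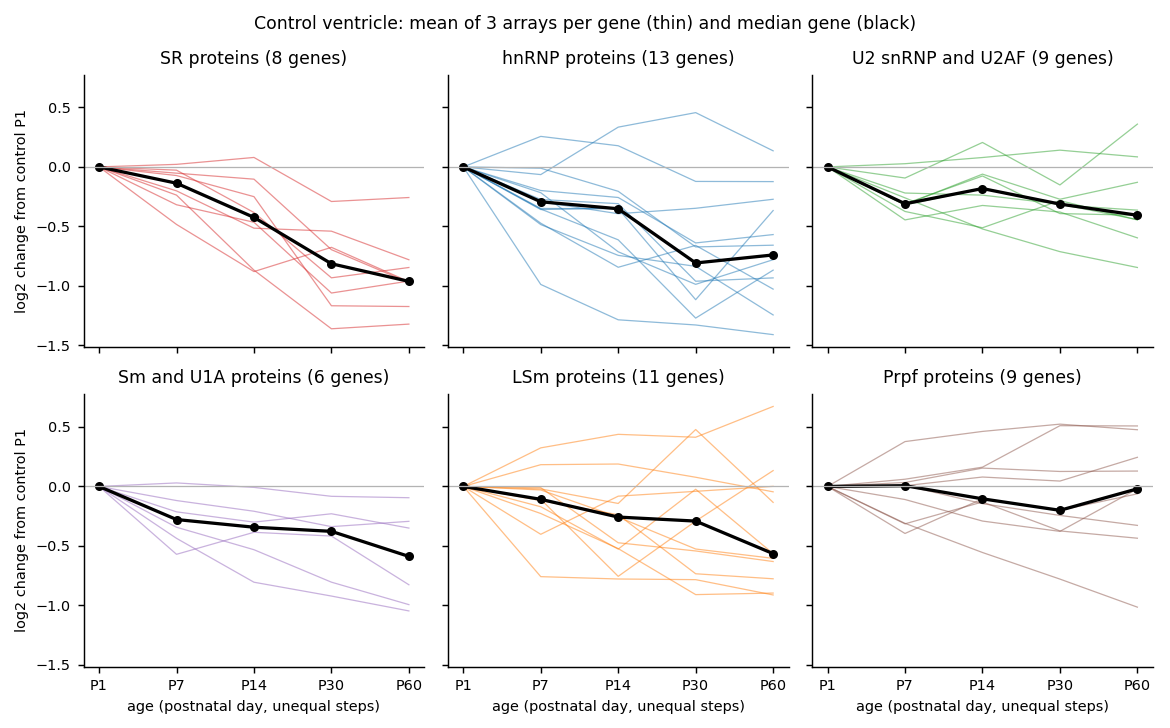
Log2 change of each gene from its mean at control P1 (y axis) at P1, P7, P14, P30 and P60 (x axis, unequal steps), with each thin line the mean of 3 control arrays for 1 gene and the black line the median gene of the role. The median SR gene went from -0.14 at P7 to -0.81 at P30, and the median gene of U2 and U2AF was already at -0.31 at P7.

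From P1 to P7 in the control ventricle 22 genes fell and 4 rose, against 12.5% and 12.1% of all probes. After *Rbmx*, at -0.99, the largest falls were *Lsm2* at -0.76, *Snrpf* at -0.57 (adjusted p = 5.62e-06, limma) and *Hnrnpa0* at -0.49. The 4 that rose were *Lsmem1* at 0.65, *Prpf18* at 0.38, *Lsm14b* at 0.32 and *Hnrnpc* at 0.26, and the arrays of *Lsm14b* overlapped between the ages. Without replicate 2 of control P1 only 2 of these rises passed.

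From P7 to P14, 12 genes fell and 4 rose, against 9.91% and 9.53% of all probes. *Lsm10* fell by 0.65 (adjusted p = 4.13e-05, limma), *Srsf5* by 0.63 (adjusted p = 1.77e-05, limma), *Hnrnpk* by 0.50 and *Lsm5* by 0.46. *Hnrnpul2* rose by 0.40, *Lsm3* by 0.32, *Sf3b2* by 0.30 and *Prpf3* by 0.29, and without replicate 2 or replicate 3 of control P14 only 2 rises passed. This step depended on the normalization, since 22 genes fell and 1 rose with median scaling. Over all probes this scaling gave 2403 lower and 3361 higher, against 1783 and 1716 with quantile normalization.

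From P14 to P30, 20 genes fell and 6 rose, against 16.1% and 16.2% of all probes. *Srsf6* fell by 0.92, from 9.43, 9.32 and 9.50 to 8.47, 8.57 and 8.45 (adjusted p = 3.27e-08, limma), so that most of its postnatal fall lay in this step, since only 21.3% of it had come by P14. *Hnrnpdl* fell by 0.76 (adjusted p = 7.83e-05, limma), *Hnrnpab* by 0.66 (adjusted p = 6.16e-06, limma) and *Hnrnpl* by 0.65. *Lsmem1* rose by 0.74, *Lsm12* by 0.62, *Lsm1* by 0.50 and *Lsm10* by 0.46.

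From P30 to P60 fewer genes moved, with 9 that fell and 6 that rose, against 10.1% and 11% of all probes. Some of these steps undid the one before. *Hnrnpdl*, which encodes a relative of AUF1, was measured at 9.48, 9.05 and 9.14 at P14, at 8.58, 8.37 and 8.43 at P30 and at 9.34, 9.19 and 9.10 at P60. All 3 arrays at P30 lay below every array of the other control ages, and the rise to P60 was 0.75 (SE 0.14, adjusted p = 0.000219, limma). *Lsm12* had the opposite course, at 7.84, 8.12 and 7.93 at P14, at 8.78, 8.45 and 8.53 at P30 and at 8.05, 7.90 and 7.98 at P60, a fall of 0.61 in the last step (adjusted p = 0.000327, limma). *Lsm1* was also highest of these 3 ages at P30 and then fell by 0.54 (adjusted p = 2.67e-05, limma), and *Sf3b2* and *Hnrnpab* rose by 0.51 and 0.40 after their falls. *Lsm10* rose by 0.42, and *Snrpf* and *Hnrnpa0* fell by 0.41 each. The count of falls in this step was 5 without replicate 1 of control P30, replicate 2 of control P60 or replicate 3 of control P60. Since steps that meet at P30 share its arrays, a deviation of that group enters both with opposite signs.

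**Figure D3:**
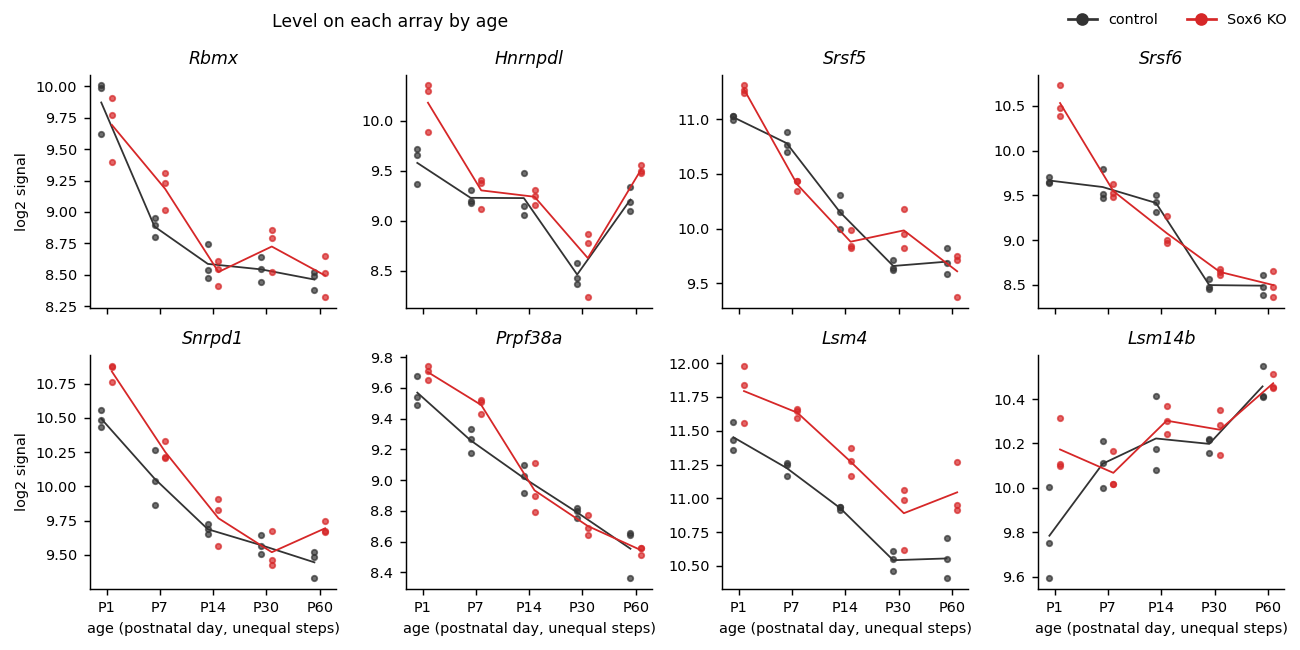
Log2 signal (y axis) of 8 genes on each array at the 5 ages (x axis, unequal steps), control in black and Sox6 KO in red, with lines through the means of 3 arrays. *Srsf6* starts higher in Sox6 KO at P1 and passed against control at no later age, *Hnrnpdl* dips at P30 in both, and *Lsm4* lies higher in Sox6 KO throughout.

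The Sox6 KO ventricles form a second age series with no array in common with the first. There, 37 genes fell and 9 rose from P1 to P60, against 28.6% and 29.9% of all probes, and the median was -0.49. Of the genes that fell, 34 fell in both series, which is 87.2% of the 39 in control and 91.9% of the 37 in Sox6 KO. The 5 genes that rose in control rose in Sox6 KO too, and no gene passed in opposite directions. These overlaps were not counted over all tested probes, so they are not shown to be particular to the 57 genes. The changes of the 57 genes in the 2 series had a correlation of 0.892, and those of all tested probes of 0.898, as descriptions over genes that share arrays. By step in the Sox6 KO series, 18 genes fell and 2 rose from P1 to P7 (13.3% and 12.5% of all probes), 21 fell and 3 rose from P7 to P14 (13.4% and 13.7%), 21 fell and 7 rose from P14 to P30 (18% and 18.7%), and 7 fell and 4 rose from P30 to P60 (8.83% and 9.31%). The falls from P7 to P14 numbered 41 with median scaling. Over all probes this scaling gave 3870 lower and 5058 higher in that step, against 2403 and 2474 with quantile normalization. Without the P1 arrays 31 genes were lower and 9 higher at P60 than at P7, against 24.8% and 26.6% of all probes.

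*Srsf6* had the largest fall of the Sox6 KO series, from 10.39, 10.73 and 10.48 at P1 to 8.48, 8.36 and 8.66 at P60, which is 4.09-fold (log2 change -2.03, SE 0.10, adjusted p = 3.23e-16, limma). *Srsf5* followed with a log2 change of -1.67 (adjusted p = 1.09e-14, limma) and *Rbmx* with -1.20 (adjusted p = 1.77e-09, limma). *Hnrnpc*, *Lsm12* and *Snrpa* fell in Sox6 KO and did not pass in control, and *Lsm2*, *Prpf40b*, *Prpf38b*, *Srsf4* and *U2af2* fell in control and did not pass in Sox6 KO. Beside the 5 shared genes, *Hnrnpul2* rose by 0.66, *Lsm10* by 0.39, *U2af1l4*, which encodes a relative of the small U2AF subunit, by 0.30 and *Prpf3* by 0.26. *Lsm14b*, at 0.30, and *Prpf3* stood at -0.12 and -0.062 with median scaling and passed in neither direction. The rises of *Lsm10* and of *Prpf18*, 1 of the shared genes, were 0.010 and 0.033 with that scaling and did not pass (adjusted p = 0.939 and 0.801, limma).

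**Figure D4:**
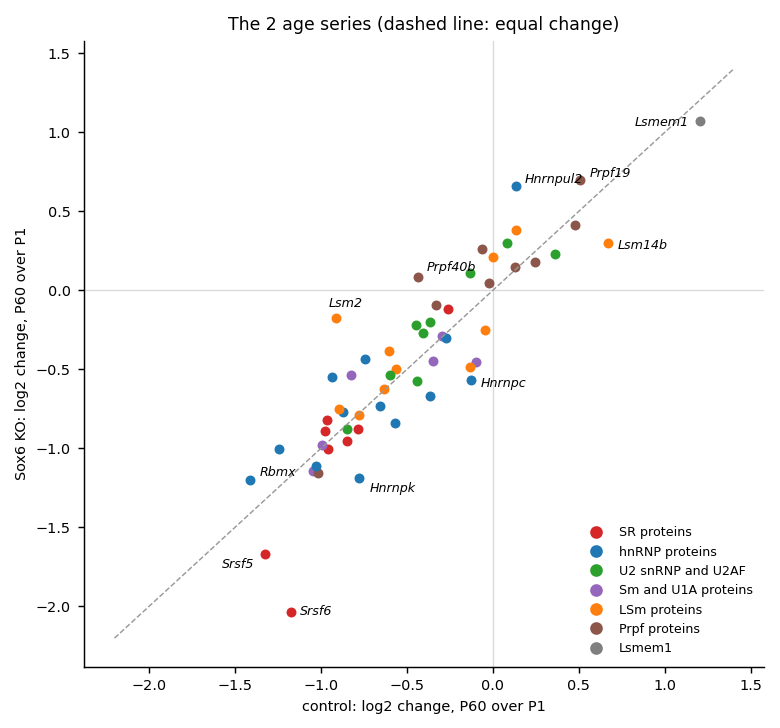
Log2 change from P1 to P60 in control (x axis) and in Sox6 KO (y axis) for the 57 genes, coloured by role, with a dashed line of equal change. Most genes lie near the line, while *Srsf6* (-1.17 and -2.03) lies below it and *Hnrnpul2* (0.14 and 0.66) and *Prpf40b* (-0.44 and 0.09) lie above it.

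Whether the change with age differed between genotypes was tested directly. From P1 to P60 the difference passed for 4 of the 57 genes, against 9.46% of all probes. *Srsf6* fell by a further 0.86 in Sox6 KO (SE 0.14, adjusted p = 0.000227, limma) and *Hnrnpc* by a further 0.44 (SE 0.12, adjusted p = 0.0169, limma), while the change of *Hnrnpul2* and that of *Prpf40b* were each 0.52 higher in Sox6 KO (adjusted p = 0.0310 and 0.0240, limma). The number that passed was 1 without replicate 3 of Sox6 KO P1 or replicate 1 of Sox6 KO P60, 2 without replicate 2 or 3 of control P1, replicate 3 of control P60 or replicate 2 of Sox6 KO P1, and 10 without replicate 1 of control P1. *Srsf6* passed in each fit that left out 1 array.

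By step, the difference passed for 3 genes from P1 to P7 (4.65% of all probes), 0 from P7 to P14 (0.995%, and 9 at an unadjusted p under 0.05), 2 from P14 to P30 (1.94%) and 1 from P30 to P60 (2.38%). In the first week *Srsf6* fell by 0.91 and *Srsf5* by 0.63 more in Sox6 KO than in control. *Hnrnpc* rose by 0.26 in control and fell by 0.24 in Sox6 KO, a difference of -0.50, which did not pass without replicate 3 of Sox6 KO P1. *Srsf5* then changed by 0.60 more from P14 to P30 (adjusted p = 0.0130, limma), where it fell in control and not in Sox6 KO, a call lost without replicate 2 of control P14. The difference for *Lsm1* in that step was -0.49, and it missed the threshold in 6 of the fits that left out 1 array and with median scaling (adjusted p = 0.0761, limma). *Lsm5* changed by 0.49 more from P30 to P60. In limma's F test of a genotype effect that differs between the ages 8 genes passed, against 13.8% of all probes: *Srsf5*, *Srsf6*, *Hnrnpc*, *Lsm1*, *Lsm3*, *Lsm5*, *Prpf40b* and *Snrpf*.

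Within one age, the genotypes differed most at P1, where 11 genes were higher and 4 lower in Sox6 KO, against 8.82% and 7.91% of all probes. *Srsf6* was measured at 9.71, 9.65 and 9.64 in control and at 10.39, 10.73 and 10.48 in Sox6 KO, so the 2 sets did not overlap and differed by 0.87 (1.82-fold, SE 0.10, adjusted p = 5.92e-07, limma). *Hnrnpc* was at 11.84, 11.81 and 11.91 in control and at 12.21, 12.42 and 12.60 in Sox6 KO (log2 difference 0.55, SE 0.08, adjusted p = 3.63e-05, limma). *Hnrnpdl* was at 9.66, 9.36 and 9.71 in control and at 9.89, 10.35 and 10.29 in Sox6 KO (log2 difference 0.60, SE 0.14, adjusted p = 0.00267, limma). In all 3 genes each Sox6 KO array was higher than each control array.

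Smaller differences at P1 were those of *Lsm14b* at 0.39, *Lsm6* at 0.37 and *Snrpd1* at 0.34, all higher in Sox6 KO, and *Hnrnpul2* at -0.47 and *Prpf40b* at -0.38, with arrays of *Prpf40b* that overlapped. Without replicate 2 of control P1 the counts were 6 higher and 1 lower, without replicate 2 of Sox6 KO P1 they were 7 and 2, and without replicate 3 of Sox6 KO P1 2 genes were lower. With the spread estimated from the 6 arrays of the comparison alone, 2 genes were higher and none lower, and with normexp background correction 7 were higher. The summed signal of the 2 measured atrial markers, *Myl4* and *Nppa*, was 30040 to 74795 on the control arrays and 77731 to 82135 on the Sox6 KO arrays at P1, and that of the cardiomyocyte markers was 245788 to 268840 and 223683 to 235067. The study counts *Nppa* among fetal type genes, so the first sum does not identify atrial cells. The 7 named markers of cell division were all higher in Sox6 KO at P1, with a sum of 7219 to 7542 against 4712 to 5154. The part of these markers in the differences at P1 was not tested.

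At the later ages few genes differed. At P7 3 were higher and 1 was lower, against 3.02% and 2.38% of all probes: *Lsm3* by 0.56 (adjusted p = 0.00173, limma), *Lsm6* by 0.43 (adjusted p = 0.000372, limma), *Lsm4* by 0.41 and *Srsf5* by -0.38. *Lsm4* missed the threshold in 4 of the 6 fits that left out 1 array (without replicate 1 or 2 of control, or replicate 1 or 3 of Sox6 KO), and *Srsf5* missed it without replicate 2 of either group. *Lsm3* was at 9.68, 10.15 and 9.85 in control and at 10.46, 10.60 and 10.30 in Sox6 KO, where all arrays were higher. Cell type and cell division markers also differed at P7. Both atrial markers passed as higher in Sox6 KO, with a sum of 8029 to 19510 against 3876 to 4563 in control, and all 7 named markers of cell division were higher, with a sum of 5099 to 5513 against 2629 to 2937. The study reads the higher *Nppa* at P7 as that of a fetal type gene. Of the endothelial, fibroblast and macrophage markers 2 each passed as lower, of 9, 7 and 5 measured. The part of these markers in the differences at P7 was not tested. At P14 0 genes were higher and 0 lower (limma), against 1.47% and 1.13% of all probes, while 3 were higher and 5 lower at an unadjusted p under 0.05, and without replicate 1 of Sox6 KO P14 1 gene was lower.

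At P30 2 were higher and 2 lower, against 3.16% and 3.69% of all probes: *Lsm4* at 0.35, *Srsf5* at 0.33, *Lsm14a* at -0.39 and *Lsm1* at -0.28. Each of these 4 missed the threshold in 4 or 5 of the 6 fits that left out 1 array, and with normexp correction none was called in either direction. At this age 1 of the 2 atrial markers passed as higher, while 3 of 7 fibroblast, 2 of 9 endothelial, 2 of 5 macrophage and 1 of the 7 named cell division markers passed as lower, and their part was not tested. At P60 3 were higher and 0 lower, against 2.13% and 2.39% of all probes, with 2 lower at an unadjusted p under 0.05. These were *Lsm4* at 0.49 (adjusted p = 0.00504, limma), *Lsm6* at 0.36 (adjusted p = 0.00361, limma) and *Lsm5* at 0.27, of which 1 passed without replicate 2 of Sox6 KO P60 and none with median scaling.

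*Lsm4* and *Lsm6* passed at several ages. *Lsm4* was called higher in Sox6 KO at P1, P7, P30 and P60, with 10.41, 10.70 and 10.55 in control against 10.95, 11.27 and 10.92 in Sox6 KO at P60, and stood at 0.34 at P14 without passing. Its calls were not firm, since it missed the threshold in 4 of 6 fits with 1 array left out at P7, in 5 of 6 at P30 and in 1 of 6 at P60 (without replicate 2 of Sox6 KO), and with median scaling at P30 and P60 (adjusted p = 0.272 and 0.0933, limma). *Lsm6* passed at P1, P7 and P60, with 7.76, 7.67 and 7.63 against 8.13, 8.01 and 7.98 at P60, and stood at 0.09 at P14 and 0.16 at P30. Its call at P60 was lost with median scaling (adjusted p = 0.108, limma). The other ring genes did not follow at all ages. *Lsm8* and *Lsm2* passed at none of the 5 ages, and *Lsm2* stood at -0.46 at P1. At P60 the arrays of *Lsm4* did not overlap between the genotypes, and neither did those of *Lsm6*. No other of the 57 genes passed at 3 ages or more.

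**Figure D5:**
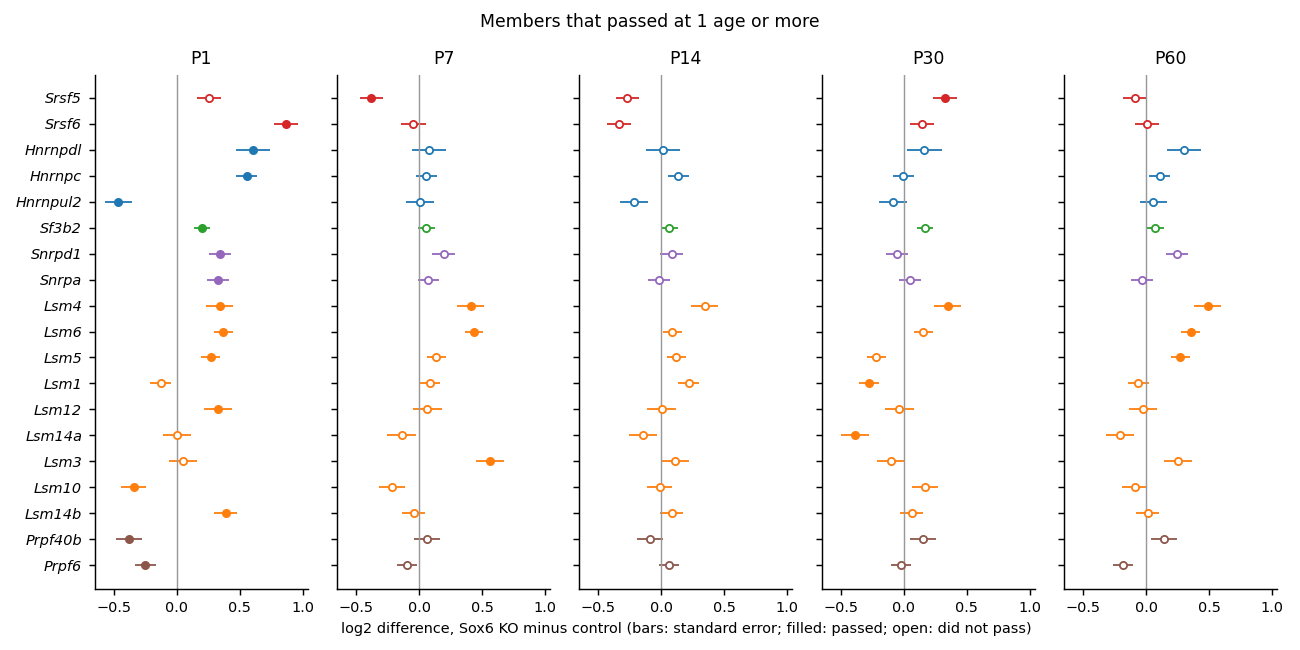
Log2 difference between Sox6 KO and control (x axis) with its standard error, in 5 panels by age, for the 19 genes that passed at 1 age or more; filled points passed at an adjusted p under 0.05. P1 holds 15 filled points, P14 holds none, and *Lsm4* lies right of 0 at all 5 ages.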

How the data were processed

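RNA of 30 mouse ventricles in 10 groups of 3 biological replicates was measured on 1-colour bead arrays. Per probe, the deposited values are signal intensity on a linear scale, exported by the authors from the scanner files with IlluminaExpressionFileCreator and not normalized between arrays, with empty detection p-values, and a second table of 6784 probes with quantile normalized intensity values; no version or background setting is given in the sources used here. The 936 negative controls among 46255 rows were recognised from their IDs. A probe was kept if its signal exceeded that of these controls (mean plus 2 SD) on the 3 arrays of some group, which left 17997. Their log2 intensity was quantile normalized across the 30 arrays, and limma 3.58.1 in R 4.3.3 was run with 1 mean per group, 20 residual and 6.72 prior degrees of freedom. Tests were two-sided, with Benjamini-Hochberg adjustment over all tested probes, and passed at an adjusted p under 0.05. The fit was tested on simulated data. The number of arrays limits the precision.

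Alternatives were median scaling, normexp with an offset of 16, other filters, the deposited processed table, the replicate number as a block, only the groups compared, each array left out, and, chosen after seeing the data, P7 in place of P1. Gene names are those of the platform annotation, with 4 genes and 7 markers of cell division named from the study's tables. Genes named are up to 4 per role by size of the control change from P1 to P60, those that passed against the common direction, the 4 largest each way per control step, up to 8 per age between genotypes, those with a difference of age changes, and *Rbmx* and *Sfpq*; other members are given in summaries by role. The members, the lists and this rule were chosen with earlier results of these data known.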

Additional observations from a re-analysis of the deposited data

Results flagged for a closer look

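In 10 cases the change of a gene with age differed between Sox6 KO and control in a test of the difference itself (limma, Sox6 KO minus control, log2 scale). From P1 to P7 these were *Srsf6* at -0.91 (adjusted p = 0.000231), *Srsf5* at -0.63 (adjusted p = 0.00550) and *Hnrnpc* at -0.50 (adjusted p = 0.0128). From P14 to P30 they were *Lsm1* at -0.49 (adjusted p = 0.0195) and *Srsf5* at 0.60 (adjusted p = 0.0130), and from P30 to P60 *Lsm5* at 0.49 (adjusted p = 0.00981). From P1 to P60 they were *Srsf6* at -0.86 (adjusted p = 0.000227), *Hnrnpc* at -0.44 (adjusted p = 0.0169), *Hnrnpul2* at 0.52 (adjusted p = 0.0310) and *Prpf40b* at 0.52 (adjusted p = 0.0240). Of all tested probes, 4.65%, 1.94%, 2.38% and 9.46% passed in these contrasts, in the same order. The cases are therefore not shown to be particular to the splicing genes. The entry of *Lsm1* missed the threshold in 6 of the fits that left out 1 array, and those of *Hnrnpul2*, *Prpf40b* and *Hnrnpc* from P1 to P60 in 7, 6 and 2. The differences that start at P1 rest on the same 6 arrays at P1, so the entries of *Srsf6* and of *Hnrnpc* are not independent of each other. No group was large enough for a test of single outlying arrays.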

How the results depend on the processing

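In each series the number of genes that fell from P1 to P60 stayed within 1.5 times the stated count under all alternatives run. In control 39 genes fell with the replicate number as a block. Single genes that fell in Sox6 KO from P1 to P60 were not followed through the alternatives. Of 95 values of single named genes, 17 kept their direction but lost their call with median scaling. A further 2 turned direction and did not pass. With only the arrays compared 19 lost their call. Median scaling gave 3 and 4 rises from P1 to P60 in control and Sox6 KO, 2 rises from P1 to P7 and 22 falls and 1 rise from P7 to P14 in control, and 41 falls and 0 rises from P7 to P14 in Sox6 KO. For Sox6 KO against control it gave 7 lower at P1, 0 lower and 5 higher at P7, 3 lower at P14, 0 higher at P30 and 0 higher at P60. In Sox6 KO *Lsm14b* and *Prpf3* turned to -0.12 and -0.062, and the median of all probes shifted by 0.14, with 5226 lower and 8185 higher against 5154 and 5388. Over all probes it also gave 358 lower and 269 higher in Sox6 KO at P14 (203 and 264 with quantile normalization), 717 and 331 at P30 (664 and 569), 404 and 166 at P60 (430 and 384), and 1175 and 780 from P30 to P60 in Sox6 KO (1590 and 1675). From P7 to P14 this scaling gave 2403 lower and 3361 higher over all probes in control, and 3870 and 5058 in Sox6 KO. With normexp 7 were higher at P1, 0 lower at P7, and 0 lower and 0 higher at P30. Without a filter 0 were lower and 1 higher at P30, with the block 1 was higher at P30, and with the processed values 1 was lower at P14. With only the arrays compared, 13 fell and 2 rose from P1 to P7 in control, 0 were lower and 2 higher in Sox6 KO at P1, 1 higher at P14, 0 lower and 0 higher at P30, and the age change differed between genotypes for 1. The tool used there was limma, and counts of 0 have their unadjusted counts in the comparison itself. The causes were not tested.

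With each array left out in turn, control falls and rises ranged over 16 to 20 and 2 to 4 from P1 to P7, 9 to 12 and 2 to 4 from P7 to P14, 16 to 19 and 5 to 6 from P14 to P30, 5 to 9 and 5 to 5 from P30 to P60, and 36 to 39 and 5 to 6 from P1 to P60. In Sox6 KO they ranged over 13 to 18 and 1 to 2, 17 to 21 and 2 to 4, 15 to 21 and 5 to 8, 5 to 7 and 3 to 5, and 35 to 37 and 8 to 10. Lower and higher counts in Sox6 KO against control ranged over 1 to 5 and 6 to 12 at P1, 0 to 1 and 2 to 3 at P7, 0 to 1 and 0 to 0 at P14, 0 to 1 and 0 to 1 at P30, and 0 to 0 and 1 to 3 at P60, and the difference of age changes over 1 to 10. *Hnrnpul2* and *Prpf40b* missed the threshold for that difference in 7 and 6 of these fits, *Hnrnpc* in 2 and *Srsf6* in 0, and *Lsm1* missed it for the step from P14 to P30 in 6. Same-numbered arrays did not deviate together in all pairs in any of 15 comparisons (correlations from -0.23 to 0.13), so the block is given only here. A slide block and a second probe per gene were not run, since no slides are named and no member has a second named probe.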
